A study of Mus musculus with 10 samples.

Results

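The genes for the receptors of IL-33, IL-18 and IL-1 lie side by side on mouse chromosome 1, and the chromatin accessibility of this cluster was compared in group 2 innate lymphoid cells (ILC2s) from 5 tissues. The cluster was taken as the open chromatin regions (OCRs) whose centre lies inside *Il1r2*, *Il1r1*, *Il1rl2*, *Il1rl1*, *Il18r1* or *Il18rap*, or whose nearest RefSeq transcription start site (TSS) belongs to one of these 6 genes. These were 51 of the 50039 OCRs of the table, with 7 for *Il1r2*, 5 for *Il1r1*, 5 for *Il1rl2*, 19 for *Il1rl1*, 6 for *Il18r1* and 9 for *Il18rap*. Of the 51 regions, 8 were at promoters, 27 were intragenic and 16 were intergenic, and 12 of the intergenic ones belonged to *Il1rl1*. Naming a region after the closest TSS is only a label, and the gene it controls is not known from these data.

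Accessibility was measured by ATAC-seq, in which a transposase cuts and tags open DNA, so that more reads fall on more accessible regions. ILC2s were sorted from small intestine (SI), large intestine (LI), pancreas, lung and bone marrow (BM) of wild-type male C57BL/6 mice aged 6 weeks, with 2 libraries for each tissue. Each library held 50000 sorted cells, from a pool of 10 mice for either part of the intestine and of 16 mice for the other 3 tissues. Cells with the lineage markers CD3, B220, CD11b, CD11c or FceRI were left out in each sort. BM ILC2s were gated as ST2+CD25+ on 1 sorter. The other ILC2s were sorted on another machine, as CD45+CD127+ST2+CD25+ in LI, lung and pancreas, and as CD45+CD127+KLRG1+ with a limited level of Thy1 in SI. The labels call that Thy1 level intermediate and the methods of the study call it low. ST2 is the product of *Il1rl1*, so the gate chose cells with this receptor in 4 tissues and did not ask for it in SI. Gate and tissue cannot be told apart in these libraries.

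IL-33, an alarmin of damaged barrier and stromal cells, binds ST2 and is a major activator of ILC2s. ST2 pairs with the shared subunit IL-1RAP and signals through MyD88 and IRAK kinases. Its gene also gives shorter transcripts for soluble ST2, a decoy that captures IL-33. IL-18 binds the receptor chain encoded by *Il18r1*, and the accessory chain encoded by *Il18rap* is needed for its signal. *Il1r1* encodes the signalling receptor of IL-1, *Il1r2* a decoy receptor that binds IL-1 without signalling, and *Il1rl2* the receptor of the IL-36 cytokines.

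The counts of a library summed to between 10282987 and 32797872, and the counts of the 51 regions made up between 0.0277% and 0.104% of a library. Levels are given as CPM, read counts relative to the TMM-scaled depth of the library, and each tissue has n = 2. The p-values measure the spread between these libraries of pooled mice. Of the 12 ILC2 marker genes looked at, each had an OCR at its promoter, at a mean of 20.2 to 29.4 CPM per marker over the libraries. Single markers ranged from 0.523 CPM for *Il1rl1* in 1 SI library to 87.8 for *Rora* in 1 BM library. A promoter OCR was present for 2 of 7 T cell markers, 1 of 5 B cell markers and 2 of 3 epithelial markers. None was listed for the 6 markers of mast cells and basophils, the 6 of macrophages and neutrophils, the 4 of NK cells and ILC1 or the 3 of ILC3, which is not the same as a measured 0.

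The sequences of 8 regions are shown because the comparisons turn on them: 7 at *Il1rl1*, including both of its promoters, and the promoter of *Il1r1*. Regions are named by the distance of their centre from the most upstream TSS of their gene. Each sequence is the 300 bases around the centre of the region, read from GRCm38 (mm10) on the + strand, which is the strand of all 6 genes, and shortened where it met an exon. Capitals mark AGATAA or TGATAA on either strand, the core letters of GATA factor motifs, so that TTATCT and TTATCA are also in capitals.

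*Il1rl1* −36.1 kb region, chr1:40393356-40393655: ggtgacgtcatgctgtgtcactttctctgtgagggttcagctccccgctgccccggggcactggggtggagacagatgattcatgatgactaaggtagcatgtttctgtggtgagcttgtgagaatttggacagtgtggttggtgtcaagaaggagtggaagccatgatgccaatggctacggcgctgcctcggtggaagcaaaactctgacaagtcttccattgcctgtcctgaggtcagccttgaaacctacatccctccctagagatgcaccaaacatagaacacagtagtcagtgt
*Il1rl1* −29.8 kb region, chr1:40399658-40399957: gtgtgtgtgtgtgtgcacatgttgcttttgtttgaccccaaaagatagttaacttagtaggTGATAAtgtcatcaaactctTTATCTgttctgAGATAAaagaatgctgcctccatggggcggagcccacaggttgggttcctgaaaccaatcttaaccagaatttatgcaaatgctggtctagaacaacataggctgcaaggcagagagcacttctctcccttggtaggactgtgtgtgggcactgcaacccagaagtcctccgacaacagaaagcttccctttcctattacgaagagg
*Il1rl1* −10.9 kb region, chr1:40418565-40418864: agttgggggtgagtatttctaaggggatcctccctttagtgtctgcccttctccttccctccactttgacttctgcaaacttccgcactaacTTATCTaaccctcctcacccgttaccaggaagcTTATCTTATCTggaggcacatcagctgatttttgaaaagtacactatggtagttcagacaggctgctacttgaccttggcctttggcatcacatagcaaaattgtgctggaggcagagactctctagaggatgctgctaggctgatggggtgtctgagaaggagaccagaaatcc
*Il1rl1* −8.22 kb region, chr1:40421198-40421497: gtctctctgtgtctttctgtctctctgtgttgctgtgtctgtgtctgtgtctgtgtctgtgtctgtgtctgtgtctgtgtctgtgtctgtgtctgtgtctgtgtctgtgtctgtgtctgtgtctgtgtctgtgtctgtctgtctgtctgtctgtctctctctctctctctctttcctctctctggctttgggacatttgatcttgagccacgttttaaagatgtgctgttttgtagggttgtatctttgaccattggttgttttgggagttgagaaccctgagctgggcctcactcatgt
*Il1rl1* distal promoter, chr1:40429163-40429462: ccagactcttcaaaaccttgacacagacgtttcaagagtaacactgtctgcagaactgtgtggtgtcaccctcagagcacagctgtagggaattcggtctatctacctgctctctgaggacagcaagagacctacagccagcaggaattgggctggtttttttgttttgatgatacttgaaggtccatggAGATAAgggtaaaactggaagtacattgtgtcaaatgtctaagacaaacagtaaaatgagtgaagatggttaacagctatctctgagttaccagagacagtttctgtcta
*Il1rl1* proximal promoter, chr1:40439423-40439628: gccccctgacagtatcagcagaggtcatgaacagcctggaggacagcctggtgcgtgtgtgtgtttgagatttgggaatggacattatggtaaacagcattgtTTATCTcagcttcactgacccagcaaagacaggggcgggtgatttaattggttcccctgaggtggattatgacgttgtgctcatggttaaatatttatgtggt
*Il1rl1* +18.9 kb region, chr1:40448412-40448669: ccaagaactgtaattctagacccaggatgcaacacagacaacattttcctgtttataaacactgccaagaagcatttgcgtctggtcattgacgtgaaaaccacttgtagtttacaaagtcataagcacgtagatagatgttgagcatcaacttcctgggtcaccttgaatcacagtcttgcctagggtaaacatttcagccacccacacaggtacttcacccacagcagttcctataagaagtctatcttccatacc
*Il1r1* promoter, chr1:40224913-40225079: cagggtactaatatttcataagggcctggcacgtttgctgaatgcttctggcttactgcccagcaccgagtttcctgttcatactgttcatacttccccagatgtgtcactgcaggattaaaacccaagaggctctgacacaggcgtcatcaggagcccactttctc

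GATA letters were present in the windows of 12 of the 19 *Il1rl1* regions and of 24 of the 51 regions of the cluster, against 25.9% of all 50039 regions. The −29.8 kb and −10.9 kb regions of *Il1rl1* held 3 matches each, 2 of which overlap in the −10.9 kb region, whereas the −36.1 kb, −8.22 kb and +18.9 kb regions held none. The other letters searched, on both strands and with overlaps between motifs allowed, were TGTGGT (RUNX, 24 of 51 regions against 29.1% of all), GGAAGT (ETS, 17 against 27.0%), TGANTCA (AP-1, 14 against 18.3%), AGGTCA (ROR, 12 against 18.0%), GCGTG (AHR, 12 against 29.6%), an NF-kB core motif (8 against 20.8%) and TTCNNNGAA (STAT, 6 against 7.92%). The −8.22 kb window held 17 unbroken copies of a unit of 6 bases, tgtctg, over 102 of its 300 bases, and only uniquely mapped reads were kept by the authors. These matches describe the letters and do not show that a factor binds.

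Accessibility of the cluster differed between tissues, at each region named after *Il1rl1* or *Il1r1* and at some regions of the other genes. By edgeR's quasi-likelihood F test over the 5 tissues, 38 of the 51 regions had an adjusted p under 0.05, against 44.2% of all 49981 regions tested. The 38 were all 19 regions of *Il1rl1*, all 5 of *Il1r1*, 6 of 9 at *Il18rap*, 3 of 5 at *Il1rl2*, 3 of 6 at *Il18r1* and 2 of 7 at *Il1r2*. The shares at *Il18r1* and *Il1r2* were therefore near or below that of all regions. The *Il1rl2* −28.6 kb region, named after its nearest TSS, lies in intron 5 of *Il1r1* and did not pass the F test (adjusted p = 0.295). The range of the tissue means had a median of 2.90 on the log2 scale over the *Il1rl1* regions, 2.03 over the cluster and 0.92 over all regions. The heat map of the 51 regions shows the low SI libraries at *Il1rl1* and the mixed orders elsewhere.

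**Figure D1:**
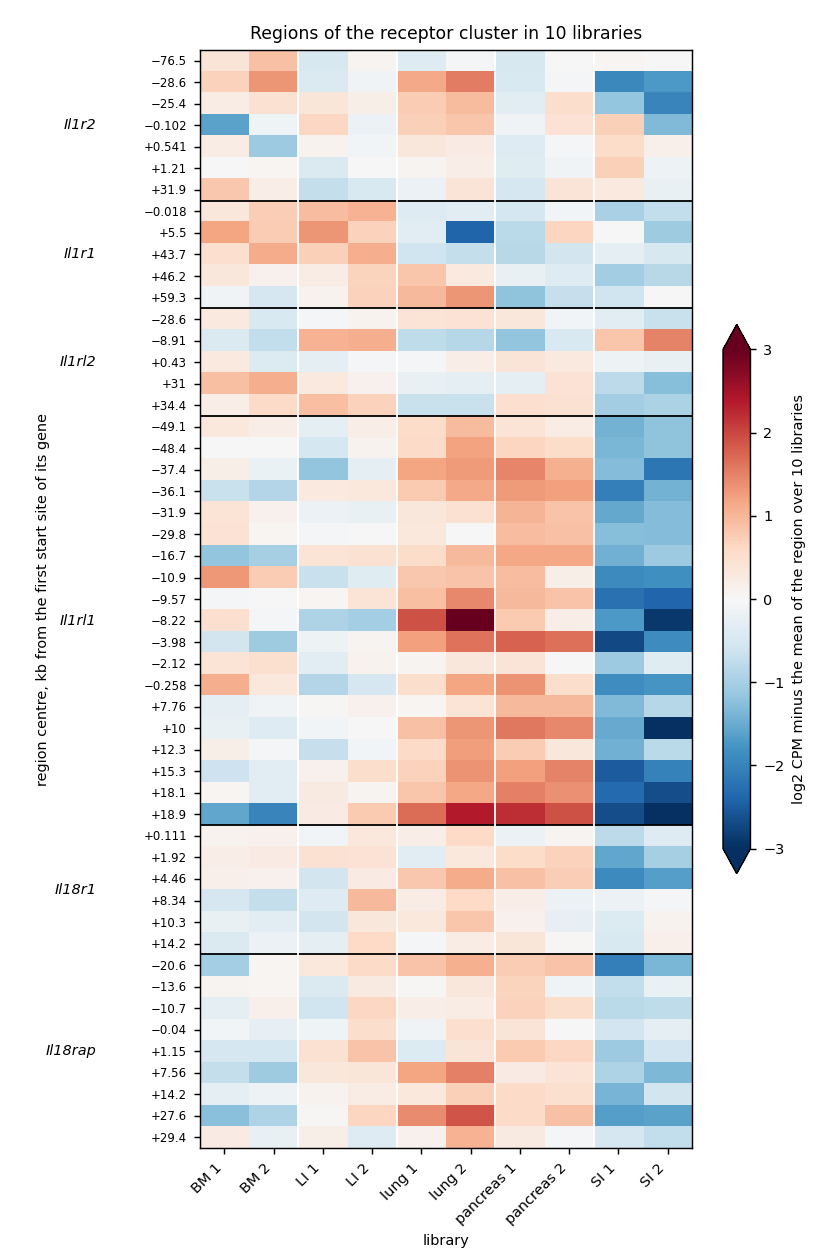
Each row is 1 of the 51 regions in chromosome order, named by kb from the first TSS of its gene, and each column is 1 library. Colours give log2 CPM minus the mean of the region over the 10 libraries, with differences beyond 3 drawn as 3, and both SI libraries are below the row mean at each of the 19 *Il1rl1* regions.

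*Il1rl1* was least accessible in SI ILC2s. Summed over its 19 regions, *Il1rl1* had 86.4 and 107 CPM in the SI libraries, 225 and 274 in LI, 291 and 256 in BM, 386 and 524 in lung, and 501 and 442 in pancreas. The SI libraries were below all others, and the lung and pancreas libraries were above all others. Lung and pancreas overlapped with each other, as did BM and LI. The tissue means were 96.5 ± 14.4 CPM in SI (SD, n = 2), 249 ± 34.5 in LI, 274 ± 24.3 in BM, 455 ± 97.1 in lung and 471 ± 41.8 in pancreas. The sum was thus 4.88 times as high in pancreas as in SI, 4.71 times in lung, 2.83 times in BM and 2.58 times in LI. In bulk libraries, fewer cells with an open region and less opening per cell cannot be told apart.

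**Figure D2:**
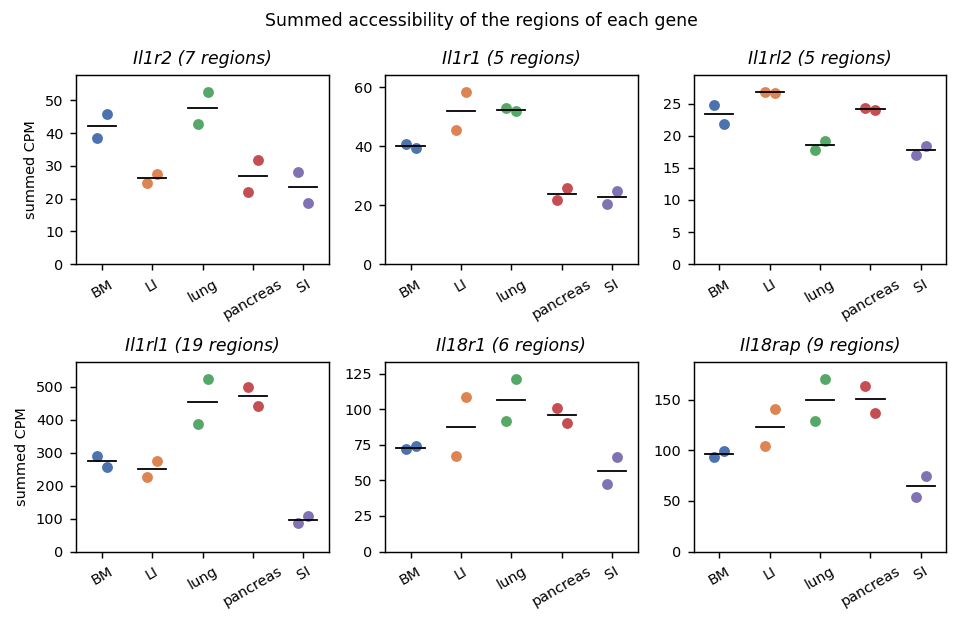
Each panel gives the summed CPM of the regions of 1 gene, with a point for each of 2 libraries per tissue and a line at their mean, on axes that start at 0. *Il1rl1* goes from 86.4 and 107 CPM in SI to 501 and 442 in pancreas, while the *Il1rl2* sums stay between 17.0 and 26.8 CPM. The *Il1rl2* sum adds regions of opposite order, such as −8.91 kb (means 5.32 CPM in SI, 1.28 in pancreas) and +34.4 kb (2.73 and 7.83).

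The SI mean was the lowest of the 5 tissues at each of the 19 *Il1rl1* regions, and at 39 of the 51 regions of the cluster, against 20.6% of all regions. A commonly decreased peak of a tissue is one where all 4 comparisons with other tissues are lower at an unadjusted p under 0.05. In SI this held for 26 of the 51 regions, against 3.59% of all regions, and 18 of the 26 were *Il1rl1* regions. The other 8 were 3 at *Il18rap*, 2 at *Il18r1*, 2 at *Il1r2* and 1 at *Il1r1*. With an adjusted p under 0.05 in each comparison the count was 19, of which 13 were at *Il1rl1*. The share of all regions under this stricter rule is not given here. Both SI libraries lay below the other 8 at 34 regions, 18 of them at *Il1rl1*, against 7.39% of all regions.

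The 4 comparisons that define a commonly decreased peak were also counted singly, and these counts are not independent of that call. By edgeR with an adjusted p under 0.05, the *Il1rl1* regions were lower in SI than in BM at 18 of 19 (10.7% of all regions), than in LI at 14 (6.9%), than in lung at 19 (9.86%) and than in pancreas at 19 (12.0%). The median log2 difference over the 19 regions was −1.57 from BM, −1.39 from LI, −2.74 from lung and −2.85 from pancreas, while the medians over all regions lay between 0.0025 and 0.058. These 4 comparisons share the SI libraries. The exception against BM was the −16.7 kb region, where BM and SI were both low. It had 4.65 and 5.34 CPM in BM and 3.90 and 4.98 in SI, against 14.2 and 14.6 in LI, 15.7 and 20.9 in lung, and 24.1 and 23.8 in pancreas. Its BM and SI libraries overlapped, and the log2 difference of BM from SI was 0.16 ± 0.25 (SE, edgeR adjusted p = 0.676).

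Markers of other cell types were read in the same libraries. *Cd79b*, the 1 B cell marker of 5 with a promoter OCR, had 6.79 to 8.52 CPM in SI, 3.74 to 4.18 in LI, 2.83 to 3.24 in pancreas, 1.79 to 2.69 in BM and 1.41 in both lung libraries. The epithelial markers *Epcam* and *Krt18* summed to 12.9 to 24.4 CPM in SI, 11.3 to 14.8 in LI, 12.9 to 14.0 in pancreas, 8.50 to 9.76 in lung and 7.00 to 8.51 in BM. *Ms4a1*, *Cd79a*, *Pax5* and *Krt8* had no promoter OCR in the table. The T cell markers *Cd3e* and *Cd3g*, the 2 of 7 with a promoter OCR, summed to 6.48 to 6.69 CPM in SI, 4.01 to 6.08 in LI, 6.54 to 8.09 in pancreas, 6.79 to 8.82 in lung and 2.45 to 2.62 in BM. The part of such cells in the SI result, or in the differences of lung and pancreas from BM, was not tested. The 12 ILC2 markers, of which *Il1rl1* is one, summed to 246 to 295 CPM in SI and 242 to 353 in the other libraries.

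**Figure D3:**
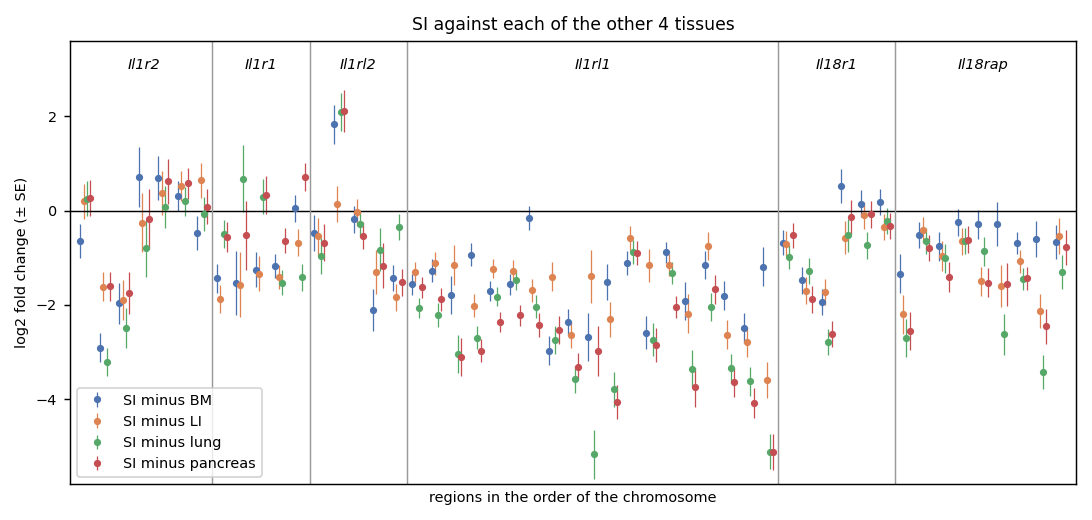
Points are the log2 fold change of SI against each of the other 4 tissues at each of the 51 regions in chromosome order, with bars of 1 SE from edgeR. At *Il1rl1* all points lie below 0, down to −5.17 against lung, and above 0 the largest values, up to 2.11, are at the *Il1rl2* −8.91 kb region.

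The 2 promoters of *Il1rl1* (chr1:40429570-40465415) did not follow the same order of tissues. The gene has 3 curated RefSeq transcripts. One of 8 exons starts at the distal TSS at 40429570, and one of 8 and one of 11 exons start at the proximal TSS, 10.1 kb downstream. The distal promoter region (−0.258 kb) had 2.84 and 3.03 CPM in SI, 27.0 and 15.2 in pancreas, 5.67 and 7.39 in LI, 15.1 and 24.1 in lung and 22.6 and 13.0 in BM. LI was therefore low beside BM, lung and pancreas, whose libraries overlapped. BM exceeded LI by 1.43 ± 0.33 on the log2 scale (SE, edgeR adjusted p = 0.00429), and LI exceeded SI by 1.16 ± 0.35 (adjusted p = 0.0508).

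The proximal promoter region (+10.0 kb) had 1.69 and 0.523 CPM in SI, 15.0 and 13.7 in pancreas, 4.71 and 4.95 in LI, 9.25 and 12.5 in lung and 4.26 and 3.77 in BM. The BM libraries lay just below those of LI here, at a log2 difference of −0.27 ± 0.36 (SE, edgeR adjusted p = 0.611). Pancreas exceeded BM by 1.84 ± 0.36 (adjusted p = 0.00182) and SI by 3.75 ± 0.41 (adjusted p = 1.12e-05). At both promoters SI was lower than each other tissue at an unadjusted p under 0.05. Whether the difference between BM and LI itself differed between the promoters was not tested.

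The largest range of the cluster was at +18.9 kb, in intron 8 of the longest transcript, at the end of the last exon of the shorter ones, with tissue means 4.88 apart on the log2 scale, closely followed by −8.22 kb at 4.87. It had 0.626 and 0.488 CPM in SI, 21.1 and 17.0 in pancreas, 5.32 and 7.82 in LI, 14.5 and 23.8 in lung and 1.47 and 1.06 in BM. Lung and pancreas overlapped, and LI, BM and SI followed in this order without overlap. BM was lower than LI by 2.39 ± 0.35 on the log2 scale (SE, edgeR adjusted p = 0.000123), and SI was lower than pancreas by 5.11 ± 0.38 (adjusted p = 4.22e-07). The SI values rest on 13 and 14 reads.

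The +18.1 kb region lies wholly in that last exon (40446530 to 40448411), which the 2 transcripts of 8 exons share. Transcripts that end there encode soluble ST2. In the transcript of 11 exons, for the membrane form, the centre of the region lies in intron 8. The region had 1.06 and 0.836 CPM in SI, 16.7 and 15.1 in pancreas, 6.89 and 6.13 in LI, 10.2 and 13.0 in lung and 6.02 and 4.56 in BM. Each of the other tissues was above SI, by 2.49 ± 0.31 (BM) to 4.07 ± 0.32 (pancreas) on the log2 scale, with edgeR adjusted p of 8.08e-05 or less in each of the 4 comparisons.

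**Figure D4:**
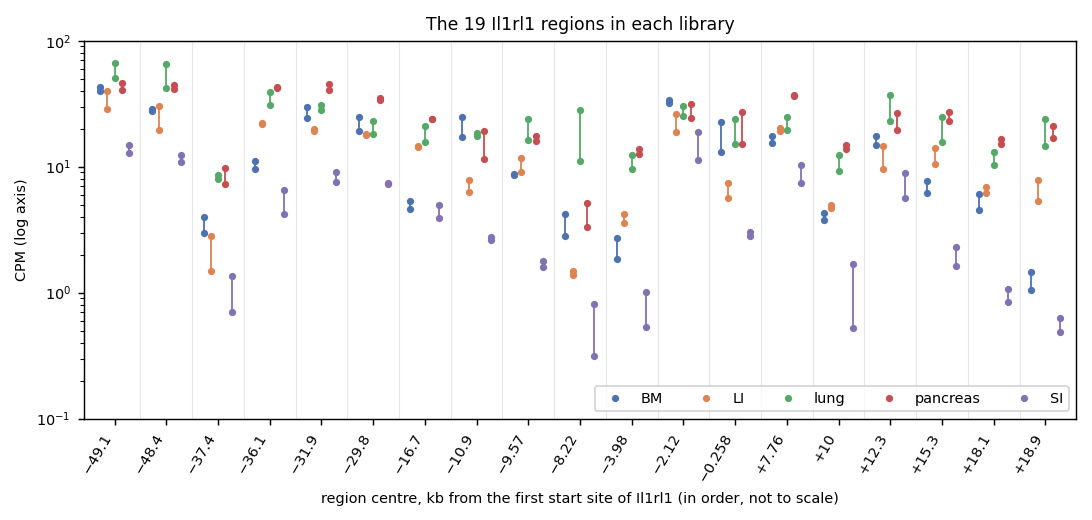
For the 19 *Il1rl1* regions in chromosome order, points are the CPM of each library on a log axis, with a line between the 2 libraries of a tissue. SI points lie lowest except at −16.7 kb, where they overlap with BM, and lung points stand highest at −8.22 kb, at 11.2 and 28.1 CPM.

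At 10 further *Il1rl1* regions the SI libraries lay below all others. The SI values against the range of the other 8 libraries were 13.0 and 15.0 against 28.9 to 66.7 CPM at −49.1 kb, 11.0 and 12.3 against 19.7 to 65.8 at −48.4 kb, and 1.35 and 0.697 against 1.48 to 9.78 at −37.4 kb. Nearer to the gene they were 7.61 and 9.02 against 19.2 to 45.5 CPM at −31.9 kb, 1.78 and 1.60 against 8.61 to 24.0 at −9.57 kb, 0.530 and 1.01 against 1.84 to 13.8 at −3.98 kb, and 11.3 and 18.9 against 19.0 to 33.5 at −2.12 kb. Inside the gene they were 7.46 and 10.2 against 15.4 to 37.0 CPM at +7.76 kb, 5.63 and 8.88 against 9.59 to 37.0 at +12.3 kb, and 1.64 and 2.30 against 6.21 to 27.1 at +15.3 kb. The −2.12 kb region had the smallest range of the 19, at 1.16 on the log2 scale, and its difference between LI and SI was 0.58 ± 0.25 (SE, edgeR adjusted p = 0.17).

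Upstream of *Il1rl1*, the order of tissues differed between regions. At −36.1 kb, BM had 11.1 and 9.62 CPM, LI 21.8 and 22.0, lung 30.9 and 39.4, pancreas 43.0 and 41.8, and SI 4.19 and 6.55. The libraries of the 5 tissues did not overlap there, and the pancreas mean was highest. Pancreas exceeded lung by only 0.27 ± 0.22 on the log2 scale (SE, edgeR adjusted p = 0.535), and lung exceeded LI by 0.68 ± 0.23 (adjusted p = 0.0641). At −10.9 kb, BM had 24.9 and 17.1 CPM, LI 6.28 and 7.78, lung 17.6 and 18.5, pancreas 19.2 and 11.4, and SI 2.60 and 2.75. BM was the highest mean there and exceeded LI by 1.57 ± 0.28 on the log2 scale (SE, edgeR adjusted p = 0.000707), as at the distal promoter, whereas LI exceeded BM at −36.1 kb by 1.08 ± 0.23 (adjusted p = 0.00271). Over the 19 regions, BM and LI differed at 7, against 30.9% of all regions, with LI higher at −36.1, −16.7, +15.3 and +18.9 kb and BM higher at −10.9, −8.22 and −0.258 kb.

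Lung and pancreas had the most accessible *Il1rl1*. The highest tissue mean was that of pancreas at 12 of the 19 regions, lung at 5 and BM at 2. Regions were higher in lung than in BM at 12 (11.5% of all regions) and than in LI at 11 (2.72%), and higher in pancreas than in BM at 12 (14.3%) and than in LI at 11 (1.25%), by edgeR with an adjusted p under 0.05. Pancreas and lung differed from each other at 2 regions, against 5.82% of all regions. One was −29.8 kb, with 35.0 and 33.9 CPM in pancreas, 22.9 and 18.1 in lung, 24.7 and 19.1 in BM, 17.8 and 18.1 in LI, and 7.46 and 7.32 in SI. Pancreas stood above all other libraries there, by 0.75 ± 0.21 over lung on the log2 scale (SE, edgeR adjusted p = 0.0481).

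The other was −8.22 kb, the region with the repeat of 6 bases. It had 11.2 and 28.1 CPM in lung, 4.21 and 2.81 in BM, 1.48 and 1.39 in LI, 5.12 and 3.34 in pancreas, and 0.818 and 0.314 in SI. Both lung libraries were above all others but differed widely from each other. Lung exceeded pancreas by 2.19 ± 0.43 on the log2 scale (SE, edgeR adjusted p = 0.00737).

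In the terms of the study, a tissue-specific OCR (TS OCR) is one where all 4 comparisons with other tissues are higher at an unadjusted p under 0.05. The cluster held 5 lung TS OCRs, against 1.3% of all regions: *Il1rl1* −8.22 kb, *Il1r1* +59.3 kb, *Il18r1* +10.3 kb, and *Il18rap* +7.56 kb and +27.6 kb. It held 3 pancreas TS OCRs, against 1.43% of all regions, all upstream of or inside *Il1rl1*, at −31.9, −29.8 and +7.76 kb. With an adjusted p, 1 lung TS OCR (*Il1rl1* −8.22 kb) and 1 pancreas TS OCR (*Il1rl1* −29.8 kb) remained. Shares of all regions with an adjusted p are not given here. Scaled by library size alone, 8 regions were lung TS OCRs and 0 pancreas TS OCRs. That scaling also raised the median log2 difference of lung over all regions. The rise was 0.21 against BM, 0.25 against LI, 0.25 against pancreas and 0.012 against SI. The share of all regions called under that scaling is not given here. The number of lung TS OCRs was 1 without lung replicate 2, 2 without pancreas replicate 1, 3 without LI replicate 1 and 8 without lung replicate 1, and that of pancreas TS OCRs was 1 without lung replicate 1.

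No region of the cluster was a TS OCR of BM (4.5% of all regions), LI (1.3%) or SI (2.8%) by edgeR, and DESeq2 also gave 0 for each. No region was lower in BM (6.63% of all regions), LI (0.132%) or lung (1.72%) than in each other tissue, by edgeR or DESeq2. These are counts at an unadjusted p. An offset for GC content and width gave 2 TS OCRs of BM, or 1 together with the replicate block, and without lung replicate 1 there was 1 region lower in lung. In pancreas, 1 region was lower (0.572% of all regions), *Il1r1* +59.3 kb, and that call was lost without BM replicate 1, lung replicate 1, lung replicate 2, pancreas replicate 1 or SI replicate 2.

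At the IL-18 receptor genes, the largest ranges lay in introns. The *Il18r1* promoter region (+0.111 kb, chr1:40465356-40465970) had 6.35 and 8.39 CPM in SI, 9.72 and 11.6 in pancreas, 10.3 and 13.6 in LI, 12.7 and 16.7 in lung and 11.7 and 11.9 in BM. The SI libraries were lowest, and the F test gave an adjusted p of 0.0468. The *Il18rap* promoter region (−0.04 kb, chr1:40515041-40515604) ranged from 8.04 CPM in SI to 17.2 in LI, and its F test gave an adjusted p of 0.192. Lung exceeded SI there by 0.65 ± 0.28 on the log2 scale (SE, edgeR adjusted p = 0.122).

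The largest range at *Il18r1* was at +4.46 kb, in intron 1. This region had 3.13 and 3.80 CPM in SI, 22.5 and 20.2 in pancreas, 8.28 and 14.4 in LI, 21.4 and 26.4 in lung and 13.5 and 13.3 in BM. The SI libraries were lowest, and the lung and pancreas libraries were above the rest. Pancreas was not called different from BM or LI there by edgeR at an adjusted p under 0.05. SI was lower than lung by 2.78 ± 0.28 on the log2 scale (SE, edgeR adjusted p = 6.05e-06) and than LI by 1.72 ± 0.28 (adjusted p = 0.00117). The +1.92 kb region, in the same intron, was also a commonly decreased peak of SI, with 3.37 and 5.02 CPM there and 7.96 to 16.4 in the other libraries. The regions at +8.34, +10.3 and +14.2 kb did not pass the F test, and their SI libraries overlapped with other tissues. The +10.3 kb region, a lung TS OCR, had 20.7 and 29.7 CPM in lung and 11.3 to 20.9 in the other libraries, so the groups overlapped.

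At *Il18rap*, the commonly decreased peaks of SI were at −20.6 kb, inside intron 9 of *Il18r1*, at −10.7 kb, between the genes, and at +14.2 kb, in intron 6. The first had 0.770 and 1.29 CPM in SI and 1.66 to 7.37 in the other libraries. The second had 7.27 and 7.45 CPM in SI and 8.46 to 20.7 in the others. The last had 14.5 and 26.1 CPM in SI, 56.9 and 53.2 in pancreas, 41.5 and 44.5 in LI, 48.0 and 63.0 in lung and 31.3 and 34.4 in BM. The largest range was at +27.6 kb, in intron 10, with 1.01 and 1.05 CPM in SI, 5.06 and 6.36 in pancreas, 3.49 and 5.39 in LI, 9.21 and 12.8 in lung and 1.37 and 1.75 in BM. Lung was highest without overlap, and BM and SI were both low. The other lung TS OCR of the gene, at +7.56 kb in intron 3, had 4.27 and 5.38 CPM in lung and 0.662 to 2.48 in the other libraries. At +27.6 kb, lung exceeded SI by 3.41 ± 0.36 on the log2 scale (SE, edgeR adjusted p = 8.90e-06) and pancreas by 0.96 ± 0.32 (adjusted p = 0.0919). The *Il18rap* sums were 53.6 and 75.1 CPM in SI and 93.5 to 170 in the other libraries. The *Il18r1* sums were 47.1 and 66.1 CPM in SI and 67.0 to 121 in the others, so SI was lowest at both genes.

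*Il1r1* (chr1:40225080-40316177) had another order. Its promoter region (−0.018 kb) had 2.50 and 2.96 CPM in SI, 3.47 and 4.75 in pancreas, 9.59 and 10.5 in LI, 3.80 and 3.95 in lung and 6.41 and 8.47 in BM. BM and LI were above the other tissues, and the SI libraries were lowest. SI was below lung by only 0.50 ± 0.30 on the log2 scale (SE, edgeR adjusted p = 0.275) and below pancreas by 0.56 ± 0.31 (adjusted p = 0.216). LI exceeded lung by 1.37 ± 0.29 on the log2 scale (SE, edgeR adjusted p = 0.00579) and SI by 1.87 ± 0.30 (adjusted p = 0.00112). The +43.7 kb region, in intron 1 and 2.17 kb after the gene's downstream TSS, had 4.16 and 6.35 CPM in BM and 4.79 and 6.30 in LI, against 1.59 to 2.36 in the other 6 libraries. The +5.5 kb region, the largest range of the gene, had 2.35 to 3.66 CPM in BM and LI and 0.193 to 2.26 in the others, with a lowest count of 7 reads.

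Deeper in *Il1r1* the order changed again. The +59.3 kb region, in intron 2, had 24.3 and 31.1 CPM in lung, 13.3 and 19.9 in LI, 11.5 and 8.61 in BM, 8.18 and 12.5 in SI, and 5.30 and 7.55 in pancreas. Lung was highest and pancreas lowest, at a log2 difference of 2.13 ± 0.30 (SE, edgeR adjusted p = 0.00126). The difference of lung from LI was 0.73 ± 0.28 (adjusted p = 0.111). The +46.2 kb region, in intron 1, was a commonly decreased peak of SI, with 5.87 and 6.83 CPM there and 9.28 to 21.9 in the other libraries.

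**Figure D5:**
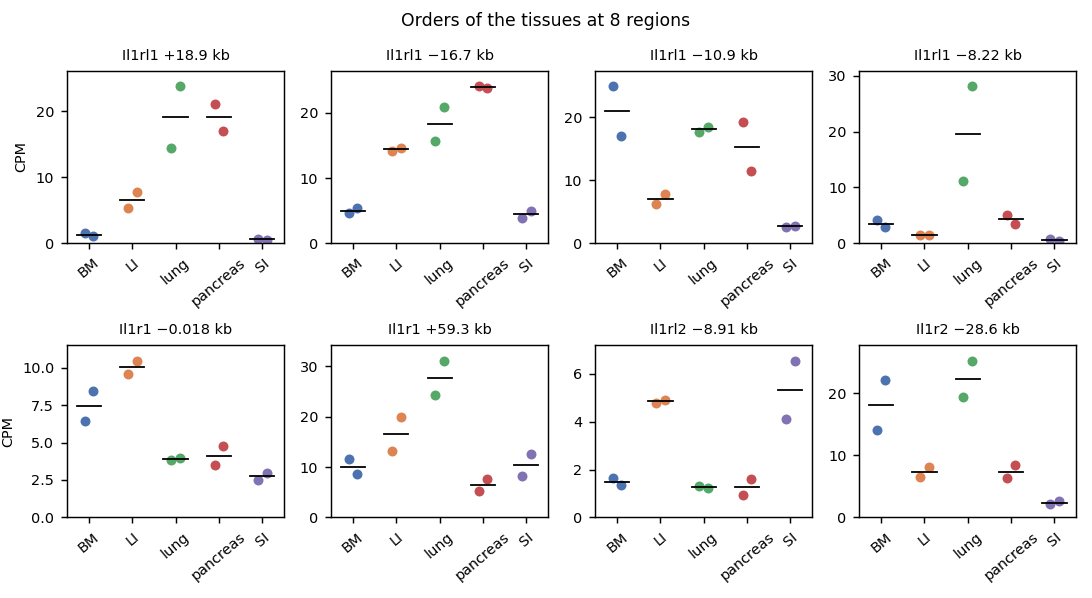
Points are the CPM of each library and lines the tissue means at 8 regions that show different orders of the tissues, on axes that start at 0. SI is lowest or among the lowest in 6 panels, whereas at *Il1rl2* −8.91 kb LI and SI stand at 4.09 to 6.55 CPM and the other 6 libraries at 0.942 to 1.66.

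The intestinal libraries stood out at 1 region. *Il1rl2* −8.91 kb, which lies in exon 11 of *Il1r1*, before the *Il1rl2* TSS, had 4.79 and 4.91 CPM in LI, 4.09 and 6.55 in SI, 1.66 and 1.33 in BM, 1.29 and 1.21 in lung, and 0.942 and 1.62 in pancreas. LI and SI overlapped with each other and with no other tissue. SI exceeded BM by 1.83 ± 0.41 on the log2 scale (SE, edgeR adjusted p = 0.00358), lung by 2.09 ± 0.41 (adjusted p = 0.00159) and pancreas by 2.11 ± 0.44 (adjusted p = 0.00286). It was the only region of the cluster with SI higher than another tissue at an adjusted p under 0.05. At *Il1rl2* itself, the +0.43 kb region near its TSS did not pass the F test (adjusted p = 0.448), with 5.71 to 9.89 CPM over the 10 libraries. The +31.0 kb and +34.4 kb regions, in introns 8 and 9, passed it, with both SI libraries lowest. The first of these had the largest range of the gene, from 0.766 and 1.11 CPM in SI to 3.77 and 4.28 in BM.

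*Il1r2*, the decoy receptor of IL-1, had 2 regions that differed, both upstream of the gene. The −28.6 kb region had 14.0 and 22.1 CPM in BM, 19.4 and 25.3 in lung, 6.45 and 8.17 in LI, 6.36 and 8.41 in pancreas, and 2.21 and 2.58 in SI. BM and lung overlapped and were highest, LI and pancreas overlapped, and SI was lowest. Lung exceeded pancreas by 1.61 ± 0.28 on the log2 scale (SE, edgeR adjusted p = 0.00422) and SI by 3.22 ± 0.30 (adjusted p = 3.32e-06). The −25.4 kb region had 0.662 and 1.25 CPM in SI and 2.30 to 5.66 in the other libraries. The promoter region at −0.102 kb had 0.587 to 3.56 CPM (F test adjusted p = 0.318). The +1.21 kb region, whose nearest TSS is that of *Gm16894*, had 4.10 to 9.20 CPM (adjusted p = 0.484), so at both no difference was detectable at this depth.

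Neighbouring genes outside the cluster were near the level of all regions. Within 500000 bp of the outermost member regions, 45 regions belonged to 11 other genes. Of these, 19 passed the F test (42.2%), 2 were commonly decreased peaks of SI, and both SI libraries lay below the other 8 at 4. The median range was 0.85 on the log2 scale, against 2.03 in the cluster.

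Other genes of the pathway were counted from lists. These counts take the regions whose nearest TSS is that of a listed gene, so a region near a shared start may count for the neighbouring gene. The list of ligands and decoys held 16 gene names, and *Il36a*, *Il36b*, *Il36g*, *Il36rn* and *Il37* were not names used in the annotation. The other 11 were, and 5 of these had such a region. Of their 7 regions, 5 passed the F test, against 44.2% of all regions. The 1 region of *Il33*, the ligand of ST2, did not pass it. *Il18*, the ligand of the IL-18 receptor, was not among these 5 genes, but a region within 1000 bp of its TSS, closer to that of another gene, had 13.5 and 8.85 CPM in SI, 6.71 and 8.12 in LI, 4.26 and 5.57 in BM, 3.65 and 4.53 in pancreas, and 4.55 and 3.12 in lung (F test by edgeR, adjusted p = 0.00224). The SI libraries were above all others there, unlike at the receptor genes. A region before the TSS of *Il1rn*, the IL-1 receptor antagonist, had tissue means of 0.605 CPM in SI, 1.04 in BM, 2.52 in lung, 2.65 in LI and 4.20 in pancreas (F test by edgeR, adjusted p = 0.000924). Of the shared and inhibitory receptors, 3 of 4 genes had a region, and 4 of 7 regions passed the F test, against the same 44.2%. *Il1rap*, the partner chain of ST2 and of the IL-1 receptor, had a promoter region at 38.4 CPM in SI and 46.4 to 57.7 in the other tissue means (F test by edgeR, adjusted p = 0.221), and a region 15.7 kb after its TSS had tissue means of 1.51 CPM in SI to 6.37 in BM (adjusted p = 0.00112).

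Of the 15 adaptors and kinases, 14 had a region by the same count. The other was *Irak1*, whose promoter region is closer to the TSS of another gene and had tissue means of 17.8 to 24.1 CPM (F test by edgeR, adjusted p = 0.471). Of the 70 regions counted, 31 passed the F test (44.3%), near the share of all regions. Among them, 6 were lower in BM than in each other tissue, against 6.63% of all regions, and 1 was lower in SI, against 3.59%. The promoter region of *Myd88*, the adaptor of these receptors, had tissue means of 14.9 to 17.5 CPM (F test by edgeR, adjusted p = 0.909). That of *Irak4*, a kinase recruited by MyD88, had 55.8 to 62.0 CPM (adjusted p = 0.941).

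Regions of *Il1rl1* varied together over the libraries. Over the 10 libraries, the Pearson correlation of log2 CPM between 2 *Il1rl1* regions had a median of 0.86 over 171 pairs, from 0.38 to 0.99. The median was 0.75 between *Il1rl1* and *Il18rap* regions, 0.59 between *Il1rl1* and *Il18r1*, 0.099 between *Il1rl1* and *Il1r1*, and 0.024 between *Il1rl1* and *Il1r2*. All regions share the 10 libraries, their depth and their tissues, so these values describe the pattern only. Among 6169 genes with at least 3 regions outside the cluster, the log2 summed CPM most like that of *Il1rl1* was at *C130026L21Rik* (r = 0.981), *Nmnat2* (0.979), *A330093E20Rik* (0.977), *Lonrf3* (0.975) and *4930512M02Rik* (0.974). For *Il18r1* it was at *1700019J19Rik* (r = 0.971), *Ccni* (0.966), *Pdcd1* (0.961), *Ube2d2b* (0.955) and *Rbpj* (0.954).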

How the data were processed

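The deposited table holds counts, which the authors made from ATAC-seq libraries. Reads were checked with FastQC 0.11.9, aligned to mm10 with Bowtie2 2.2.9 and kept where uniquely mapped. SAMtools 1.8 converted the alignments to BAM format. Peaks were called with MACS2 2.1.1, kept where found in both replicates and merged with HOMER, and reads per merged peak were counted with bedtools. Removal of duplicates and mitochondrial reads and the shift for the transposase are not given in the sources used here. No column belonged to other samples (0).

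Groups came from the labels. The 49981 of 50039 regions with at least 1 count were fitted together over 10 libraries with edgeR 4.0.16 (R 4.3.3, limma 3.58.1) by TMM scaling and quasi-likelihood tests, with tissue as the only factor, an F test over 5 tissues and 10 contrasts, each with Benjamini-Hochberg adjustment. The study used DESeq2, which was the alternative here (1.42.0). Standard errors of log2 fold changes come from the same fit, and log2 CPM used a prior count of 2. Regions were assigned by curated RefSeq transcripts of GRCm38, and a promoter spans 1000 bp before to 100 bp after a TSS. The regions named are those nearest a TSS within 1000 bp, those of largest range per gene and those called in 1 tissue against each other tissue, and other *Il1rl1* regions are given for completeness. The scripts were tested on simulated data. The member genes, lists and tests were chosen with earlier results of these data known. Whether libraries with the same number came from the same mice is not given in the sources, and the main fit did not pair them. Correlations of the deviations of libraries with the same number in 2 tissues ran from −0.218 to 0.196, highest for LI and SI. These values cannot decide whether mice were shared. The depth per library, between 10282987 and 32797872 counts, sets the precision, and low regions rest on as few as 7 reads.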

Additional observations from a re-analysis of the deposited data

How the results depend on the processing

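Of the 51 regions, 38 passed the test over the 5 tissues and 35 to 39 did when 1 library was left out. Lower in SI than in each other tissue were 26 regions (21 to 26 with 1 library left out), 18 of them at *Il1rl1* (14 to 18). Higher in lung were 5 (1 to 8), higher in pancreas 3 (1 to 3), lower in pancreas 1 (0 to 1) and lower in lung 0 (0 to 1). With 1 library left out, the lone library of a tissue is assumed to vary like the other groups. Scaling by library size alone gave 8 regions higher in lung and 0 in pancreas, and moved the median difference over all regions by up to 0.25 on the log2 scale. An offset for GC content and width gave 2 regions higher in BM. The replicate block gave 38 regions in the test over tissues and 27 lower in SI, and together with that offset it gave 1 higher in BM and 1 in pancreas. An adjusted p in each contrast gave 1 region higher in lung, 1 higher in pancreas and 0 lower in pancreas. Shares of all regions under the alternatives of this section are not given. Regions centred inside a listed gene are fewer by construction. They gave 21 in the test over tissues, 11 lower in SI and 1 higher in pancreas. Of the 11, 6 were at *Il1rl1*, and these were all of its regions centred inside the gene. DESeq2 gave 39 in the test over tissues and the same counts otherwise. A minimum of 10 counts in 2 libraries removed no further region. No direction was reversed. Causes of these changes were not tested. Gate, sorter and tissue are not separable, and 2 libraries a tissue limit the precision.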
